A study of Caenorhabditis elegans with 24 samples.

Results

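Heat-shock factor 1 (HSF-1) is the transcription factor that binds heat-shock elements in the promoters of chaperone genes and switches them on when proteins misfold. Its N-terminal part binds DNA and forms trimers, and its C-terminal part holds the activation domain. In C. elegans, HSF-1 made in neurons is known to act on the stress responses of other tissues, and an HSF-1 that lacks the C-terminal part is known for acting on actin cytoskeleton genes without inducing the heat-shock genes. The comparison described here asked what the C-terminal part adds in neurons. It set hsf-1FL, animals that overexpress full-length hsf-1 from the neuronal rab-3 promoter, against hsf-1CTD, animals that overexpress an hsf-1 with a C-terminal deletion from the same promoter.

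The comparison used 12 of the 24 RNA-sequencing libraries of the series, 6 of hsf-1FL and 6 of hsf-1CTD. Each genotype had 3 untreated (UT) and 3 heat-shocked (HS) biological replicates. A replicate was polyadenylated RNA of about 800 whole animals at day 1 of adulthood, grown at 20 °C on HT115 bacteria that carry an empty RNAi vector. Heat-shocked animals were held at 34 °C for 2 h and recovered at 20 °C for 1 h. Both lines were derived from wild-type N2, keep their own hsf-1 gene, and are 1 line per construct, so that a difference between constructs and a difference between lines cannot be told apart. In whole animals, fewer cells of a type and less RNA per cell cannot be told apart either. The series also held 3 untreated and 3 heat-shocked libraries each of N2 and of the mutant hsf-1(sy441). The paper states that this mutant has the same C-terminal deletion. Both genotypes are used below beside the comparison and were not part of the test that defined a DEG. The 12 libraries held 11215696 to 19794446 counts. The ribosomal RNA gene rrn-3.1 took between 0.662% and 10.6% of them. Of the genes in the table, 13801 had at least 10 counts in at least 3 of the 12 libraries and were tested. Levels are CPM, the counts scaled by TMM to a common library size, and a fold-change is hsf-1FL over hsf-1CTD. A differentially expressed gene (DEG) had an adjusted P-value under 0.01 in the quasi-likelihood test of edgeR. Unless said otherwise, that test had no term for the replicate number.

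The transgenes were looked for first in the level of hsf-1 itself (chromosome I, 11953507 to 11963085 in WBcel235). It was at 146, 144 and 152 CPM in the 3 untreated hsf-1FL libraries and at 150, 136 and 167 CPM in those of hsf-1CTD. After heat-shock it was at 129, 117 and 161 CPM in hsf-1FL and at 124, 117 and 155 CPM in hsf-1CTD. The 2 genotypes overlapped in both treatments. The log2(fold-change) over both treatments was -0.01 (95% interval -0.21 to 0.18, adjusted P-value 0.995). N2 lay at 132 ± 23.1 CPM (SD, n = 6) beside 142 ± 15.9 in hsf-1FL and 141 ± 19.1 in hsf-1CTD. The counts do not separate transgenic from endogenous hsf-1, and they do not show that a C-terminal part is missing. The gene whose promoter drives the transgenes, rab-3, a synaptic vesicle GTPase, had a log2(fold-change) of 0.46 (95% interval -0.22 to 1.13, adjusted P-value 0.81). Its level ranged from 2.29 to 15.2 CPM over the 12 libraries, with overlap between the genotypes.

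None of the heat-inducible genes tested passed the threshold between the constructs. The small heat-shock protein gene hsp-16.2 was at 887, 816 and 471 CPM in heat-shocked hsf-1FL and at 772, 669 and 404 CPM in heat-shocked hsf-1CTD. Untreated libraries of both genotypes held at most 1.12 CPM of it. Its neighbour hsp-16.41 was at 1338, 1159 and 602 CPM in heat-shocked hsf-1FL and at 1224, 1043 and 740 CPM in hsf-1CTD. The cytosolic chaperone hsp-70 was at 979, 732 and 912 CPM against 1443, 646 and 962 CPM. For each of the 3 genes the heat-shocked libraries of the genotypes overlapped. The log2(fold-change) after heat-shock was 0.23 for hsp-16.2 (95% interval -0.45 to 0.91), 0.03 for hsp-16.41 (-0.68 to 0.75) and -0.22 for hsp-70 (-0.79 to 0.35), with adjusted P-values of 0.995, 0.999 and 0.995. In same-numbered libraries hsp-16.2 was higher in hsf-1FL in 3 of 3 pairs after heat-shock, and with the replicate number as a block its estimate was 0.23 (edgeR adjusted P-value 0.818). The pairs of the other genes did not all go this way. In hsf-1FL hsp-16.41 was lower at 602 against 740 CPM, and hsp-70 at 979 against 1443 and 912 against 962 CPM. The intervals leave room for a difference of up to about the size of their bounds. The hsp-16 and Hsp70 genes have near-identical copies, and how reads shared by copies were counted is not given in the sources used here.

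**Figure D1:**
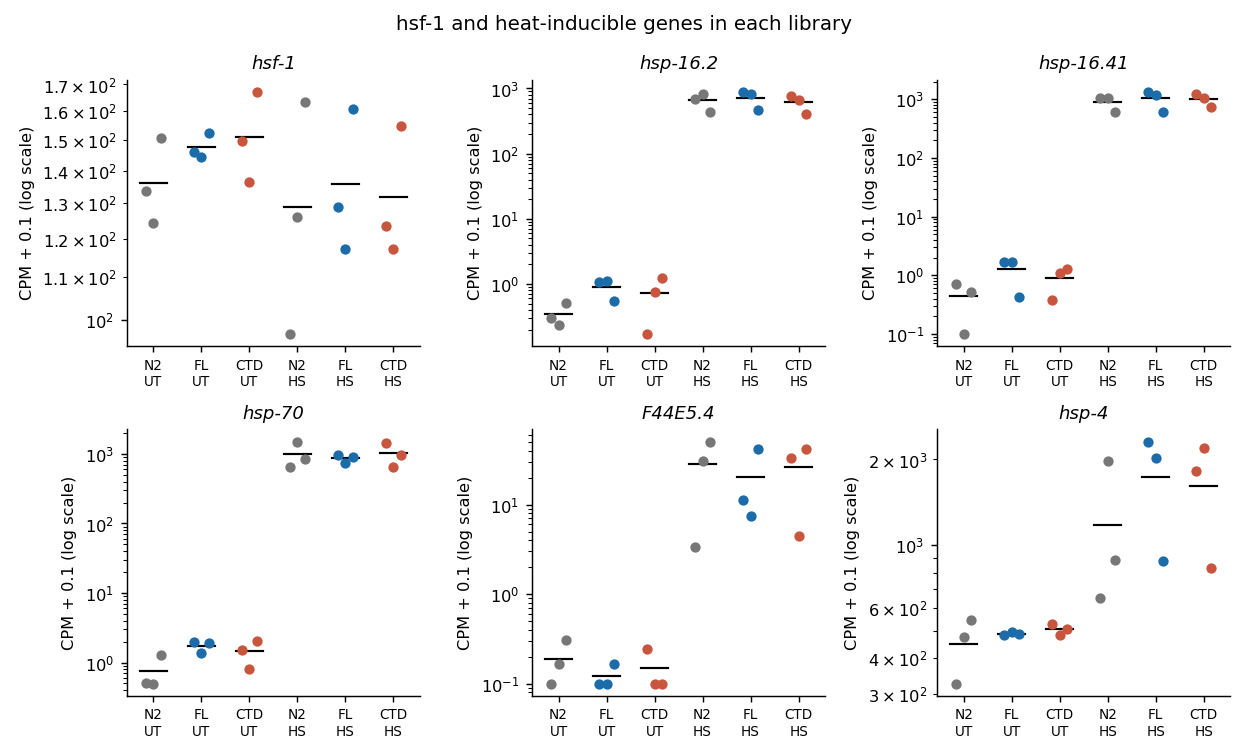
Levels of hsf-1 and 5 heat-inducible genes in each library (CPM + 0.1, log scale) for N2 (grey), hsf-1FL (blue) and hsf-1CTD (red), untreated (UT) and heat-shocked (HS), with 3 libraries a group and a bar at the mean. The hsf-1FL and hsf-1CTD points overlap after heat-shock in all 6 panels; hsp-16.2 lies between 404 and 887 CPM there.

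None of the 15 tested inducible heat-shock genes was a DEG over both treatments, in untreated animals or after heat-shock, and none passed in the test of the heat response. Over all genes tested, 1.83% were DEGs over both treatments and 0.0145% in each treatment, so that 0 of 15 is near the background. After heat-shock their median log2(fold-change) was -0.09, beside 0.01 over all genes tested, and 0 of the 15 had an unadjusted P-value under 0.05, against 7.42% of all genes. Over both treatments 1 of the 15 did, against 10.4%, and in untreated animals 1, against 7.27%. The range after heat-shock ran from -0.84 for F44E5.5 to 0.50 for hsp-17. For 8 of the 15, the 95% interval after heat-shock lay within a log2(fold-change) of 1 in either direction. The intervals of the other 7 reached beyond 1 in at least 1 direction and so included a difference of 2-fold. The summed level of the list was 4994 to 6365 CPM in heat-shocked hsf-1FL and 5438 to 6549 CPM in heat-shocked hsf-1CTD, against 2124 to 2197 and 2357 to 2496 CPM in the untreated libraries. The heat response, tested as the difference of the differences, gave 0 DEGs (0.0%) among all genes in edgeR, 0 in DESeq2 and 0 with the replicate block, with 163 genes (1.18%) at an unadjusted P-value under 0.05. The 5 genes with the lowest P-values in each direction, daf-12 and Y53F4B.24 among them, did not pass. Nor did the interaction of hsp-70, at -0.41 (95% interval -1.55 to 0.73).

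All 23 tested cytosolic chaperones had 95% intervals within a log2(fold-change) of 1 over both treatments, with estimates from -0.11 to 0.09 and 0 at an unadjusted P-value under 0.05. The same held for all 9 genes of hsf-1 and its partners, whose estimates ran from -0.11 to 0.03, and for all 17 mitochondrial stress genes. For comparison, 10030 of the 13801 genes tested had such an interval. Of 29 ER stress genes 27 had one. The ER chaperone hsp-4 (BiP) was at 482 to 494 CPM in untreated hsf-1FL and at 485 to 527 CPM in untreated hsf-1CTD. After heat-shock it was at 2313, 2023 and 878 CPM in hsf-1FL and at 1820, 2201 and 830 CPM in hsf-1CTD. Its log2(fold-change) over both treatments was 0.00 (95% interval -0.51 to 0.51).

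The list of muscle and actin cytoskeleton genes is wider than the actin cytoskeleton genes that truncated HSF-1 is known to act on. Among its 39 tested genes, 0 were DEGs over both treatments. Their median log2(fold-change) was 0.06, beside -0.01 over all genes tested, and 38 of the 39 intervals lay within 1 in either direction. The troponin C gene pat-10 was at 404 to 481 CPM in untreated hsf-1FL and at 416 to 437 CPM in untreated hsf-1CTD. Its log2(fold-change) over both treatments was 0.01 (95% interval -0.13 to 0.15, adjusted P-value 0.995). Of 56 tested neuronal genes 0 were DEGs, with a median of 0.01 and a range from -0.87 to 0.80. All 8 neuronal tissue markers lay between 0.02 and 0.46, with 0 DEGs. The 26 DAF-16 targets, 107 collagens, 19 moulting genes, 6 yolk genes, 30 oocyte and early embryo genes, 34 histones, 80 cytosolic ribosome proteins, 155 detoxification genes, 12 pals genes and 95 fbxa genes also held 0 DEGs, where 1.83% of all genes tested were called, a share at which lists of this size hold few. With the block, 5 of the 155 detoxification genes and 1 of the 95 fbxa genes were DEGs, against 3.99% of all genes. Markers of body muscle, pharynx, intestine, hypodermis and glia, 17 in all, held 0 as well. The median was -0.49 for the moulting genes, -0.25 for the 2 glia markers and -0.23 for the yolk genes, with 2 of 19, 0 of 2 and 0 of 6 at an unadjusted P-value under 0.05, against 10.4% of all genes.

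Over both treatments 253 genes were DEGs, which is 1.83% of the genes tested. Of these, 235 were higher in hsf-1FL (1.7%) and 18 were lower (0.13%). At an unadjusted P-value under 0.05 there were 1433 genes (10.4%). The test took the 6 libraries of a genotype as independent. In hsf-1FL, however, same-numbered untreated and heat-shocked libraries deviated together from their group means (r of 0.63, 0.27 and 0.30 for replicates 1, 2 and 3). In hsf-1CTD r was -0.05, 0.22 and 0.30. If such libraries share a source, which the labels do not say, the P-values over both treatments may be too small. The genotypes did not overlap within either treatment in 3.78% of all genes, 3.32% being higher in hsf-1FL, and in 232 of the 235. The 235 were called from the same libraries, so that their lack of overlap is no separate evidence. With the replicate number as a block, 550 genes (3.99%) were DEGs, 517 higher (3.75%) and 33 lower (0.239%), and they included all 253. DESeq2 called 617 (4.47%), with 581 higher (4.21%) and 36 lower (0.261%). Leaving out 1 library moved the total by over 1.5 times for 10 of the 12 libraries. It was 7, 63 and 404 without untreated hsf-1FL replicate 1, 2 or 3, and 32 without heat-shocked hsf-1FL replicate 1. It was 8, 6 and 5 without untreated hsf-1CTD replicate 1, 2 or 3, and 5, 10 and 12 without the heat-shocked hsf-1CTD replicates in that order. With surrogate variables in the model it was 3.

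**Figure D2:**
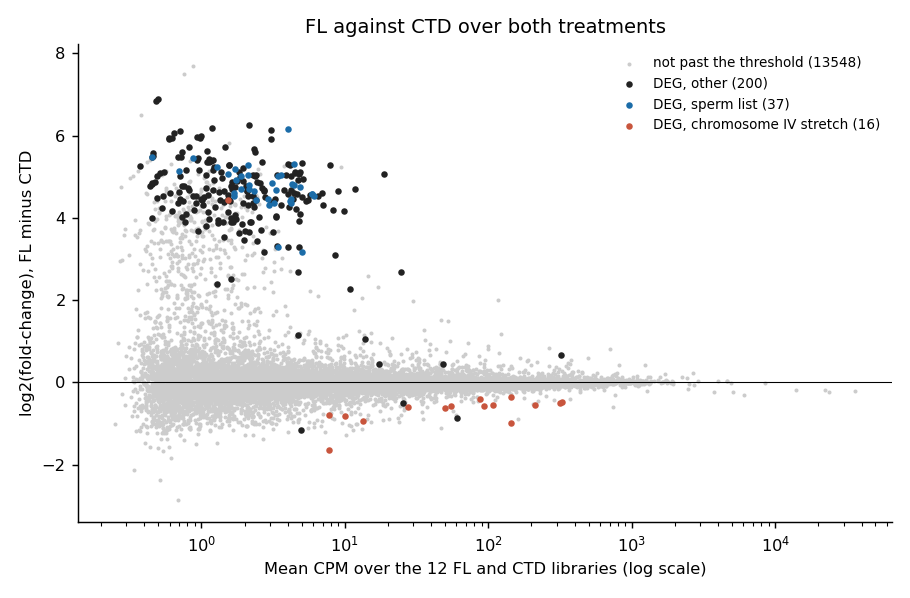
log2(fold-change) of hsf-1FL over hsf-1CTD against mean CPM over the 12 libraries (log scale) for the 13801 genes tested, 1 point a gene. DEGs of the sperm list (blue, 37) lie among other low-level DEGs above 3, and the DEGs of a stretch of chromosome IV (red, 16) lie below 0 except for F08B4.8.

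In each treatment alone, the same 2 genes were DEGs in edgeR, F42A9.6 higher and hst-1 lower in hsf-1FL (0.0145% of the genes tested, and 0.00725% in each direction). At an unadjusted P-value under 0.05 there were 1004 genes (7.27%) in untreated and 1024 (7.42%) in heat-shocked animals. In untreated animals the block gave 259 DEGs (1.88%), 250 higher (1.81%) and 9 lower (0.0652%). After heat-shock it gave 162 (1.17%), 152 higher (1.1%) and 10 lower (0.0725%). DESeq2 gave 279 (2.02%) in untreated animals, 264 higher (1.91%) and 15 lower (0.109%). After heat-shock it gave 124 (0.898%), 108 higher (0.783%) and 16 lower (0.116%). Without untreated hsf-1FL replicate 2 or 3, or untreated hsf-1CTD replicate 2, the untreated count was 1. Without heat-shocked hsf-1FL replicate 1 or 2, or heat-shocked hsf-1CTD replicate 2 or 3, the heat-shocked count was 1. Without heat-shocked hsf-1FL replicate 3, both counts were 3.

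The DEGs higher in hsf-1FL were for the most part genes of sperm and other genes at low level. Of the 235, 225 had a log2(fold-change) over 3, the median was 4.65, and 223 had a mean under 1 CPM in hsf-1CTD. The same was true of 228 in N2. Sperm genes, those of the major sperm proteins (msp) that drive the crawling of nematode sperm and of the nspd, ssp and spch families, made up 37 of them, from 46 tested. The block called 43 of the 46 and the fit with surrogate variables 0. Of all genes tested, 1.7% were called higher without the block and 3.75% with it. With surrogate variables 2 of the 13801 genes were called higher. No sperm gene was a lower DEG, and the list's median was 4.68 beside -0.01 over all genes. The list was taken up again here with its behaviour in these data already known, so its direction is no independent evidence. Genes near 0 in hsf-1CTD passed the count filter only through their hsf-1FL libraries, and so could be called only as higher. The 37 of 46, the lack of lower DEGs and the median of 4.68 depend in part on this. Copies of msp genes are near-identical, and single members are uncertain for that reason.

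The summed level of the 46 sperm genes was at 573, 157 and 66.3 CPM in untreated hsf-1FL replicates 1, 2 and 3. In untreated hsf-1CTD it was at 22.5, 12.5 and 11.6 CPM. After heat-shock it was at 449.5, 60.5 and 116 CPM in hsf-1FL and at 21.4, 7.88 and 10.7 CPM in hsf-1CTD. Every hsf-1FL library was above every hsf-1CTD library, and the replicates numbered 1 were the highest in each group. N2 lay between 6.75 and 24.8 CPM. The ratio of the means was 17.1 in untreated and 15.7 in heat-shocked animals, and 7.18 and 6.61 without the hsf-1FL libraries numbered 1. The lowest hsf-1FL library was 2.95 times the highest hsf-1CTD library in untreated and 2.83 times in heat-shocked animals.

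**Figure D3:**
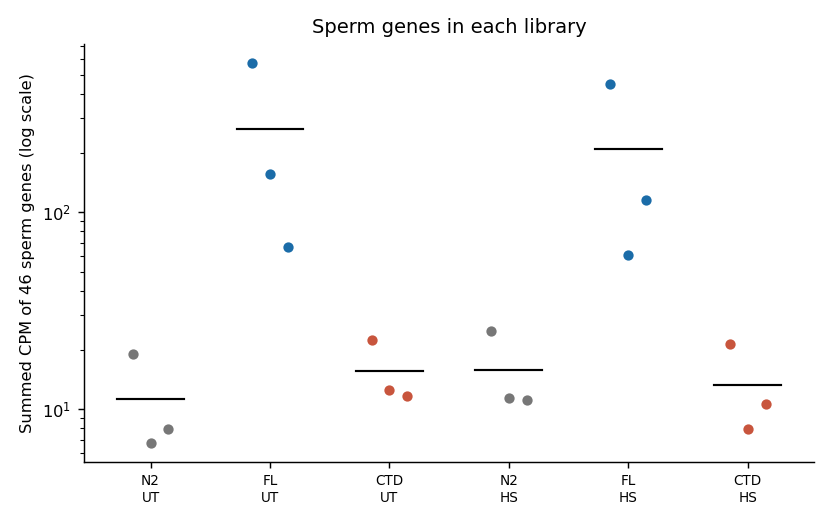
Summed level of the 46 sperm genes in each library (CPM, log scale), with 3 libraries a group and a bar at the mean, for N2 (grey), hsf-1FL (blue) and hsf-1CTD (red). The hsf-1FL libraries lie between 60.5 and 573 CPM and the hsf-1CTD libraries between 7.88 and 22.5 CPM.

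Single genes of this group rested on few counts in hsf-1CTD. The major sperm protein gene msp-49 had 294, 96 and 29 counts in untreated and 221, 19 and 43 in heat-shocked hsf-1FL, and 2, 0 and 3 and then 3, 0 and 1 in hsf-1CTD. Per unit of depth the summed counts were 79.5 times higher in hsf-1FL (95% exact counting interval 41.6 to 175, which covers counting error only). Its fitted log2(fold-change) was 6.17 (SE 0.87, adjusted P-value 0.00516). For nspd-1 it was 5.32 (SE 0.75, adjusted P-value 0.00516), and for ssq-3, of a sperm-specific family outside the list, 5.67 (SE 0.88, adjusted P-value 0.00652). The cytochrome c gene cyc-2.2 stood at 5.61 (SE 0.86, adjusted P-value 0.00645). In 91 of the 235 genes no hsf-1CTD library had more than 3 counts, and in 2 all were at 0, so that the sizes of such fold-changes are poorly bounded. With those 2 set at the bound that 3 counts allow, the median stayed at 4.65. A change in 2 of 235 values can hardly move a median, so this says nothing about the sizes in the 91.

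The 198 DEGs outside the sperm list followed it in part. Across the 6 hsf-1(sy441) libraries, which are outside the comparison and differ among themselves in sperm genes from 40.4 to 2016 CPM, 142 of the 198 (71.7%) correlated with the mean log2 level of the sperm list at a Pearson r above 0.9. Of the 13755 genes tested outside the list, 8.09% did. This is a description over 6 libraries of 1 genotype. The remaining 56 held genes with other annotations, among them the insulin-like peptide gene ins-31, at 17.2, 3.62 and 1.96 CPM in untreated hsf-1FL and at 0.286, 0.0653 and 0.0467 CPM in untreated hsf-1CTD. Its log2(fold-change) was 5.31 (SE 0.88, adjusted P-value 0.00705), and it was the 1 DEG among 108 neuropeptide genes, a share below the 1.83% of all genes called. The median of the 108 was 0.24, beside -0.01 over all genes tested, with 84 estimates above 0 and 24 below. At an unadjusted edgeR P-value under 0.05, 11 of the 108 were higher and 2 lower, against 1025 and 408 of the 13801 genes tested. The innate immunity list held 12 DEGs of 181 tested, all higher in hsf-1FL, where 1.7% of all genes were called higher, such as the C-type lectin gene clec-134 (5.73, SE 0.93, adjusted P-value 0.00691) and fipr-28 (5.42, SE 0.86, adjusted P-value 0.00652). Of these 12, 2 correlated with the sperm genes above 0.9 across hsf-1(sy441), and 11 had a mean under 5 CPM in hsf-1FL. In hsf-1CTD the 12 had means of at most 0.32 CPM. They passed the count filter through their hsf-1FL libraries and so could be called only as higher. Their shared direction and their share above 1.7% depend in part on this. The block called 29 of the 181 higher, against 3.75% of all genes. With surrogate variables, and without both hsf-1FL libraries numbered 1, 0 of the 181 were DEGs. Fatty acid metabolism held 2 DEGs of 82, acyl-CoA dehydrogenase acdh-8 (5.37, SE 0.90, adjusted P-value 0.00705) and acs-18, both above 0.9 with the sperm genes there. This is near the 1.7% of all genes called higher. The block called 5 of the 82 higher, against 3.75%. Among the higher DEGs, the estimate for srlf-18 was 6.25 (SE 1.00, adjusted P-value 0.00652).

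These genes shared the order of the hsf-1FL libraries. In 224 of the 225 DEGs with a log2(fold-change) over 3, replicate 1 was the highest of the hsf-1FL libraries in untreated and in heat-shocked animals, against 24.4% of all genes tested. Some markers of male neurons were high in the same libraries and others were not. The polycystin genes pkd-2 and lov-1, which are known from male sensory neurons, had 34 counts together in untreated hsf-1FL replicate 1 and 18 in heat-shocked replicate 1. The other 10 libraries of the comparison held 0 to 5, and the N2 libraries 0 to 7. The whole list of 7 male neuron markers (pkd-2, lov-1 and cwp-1 to cwp-5), of which 1 passed the count filter, had 63 and 54 counts in those 2 libraries, 9 to 24 in the other hsf-1FL libraries, 7 to 24 in hsf-1CTD and 10 to 59 in N2. Within it cwp-4 had 9 counts in untreated hsf-1FL replicate 1, 22 in replicate 3 and 4 to 32 in N2, and cwp-3 had 0 in the former. This list was chosen after the sperm genes had been seen, and its part in the result was not tested. Without both hsf-1FL libraries numbered 1, 17 of the 13801 genes tested were higher DEGs and 5 were lower. Of the 46 sperm genes, 6 were then DEGs, all higher. Genes of the oocyte and early embryo lay between -0.15 and 0.05 in the comparison.

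By chromosome, 40 of the 235 higher DEGs lay on I, 49 on II, 25 on III, 85 on IV, 35 on V and 1 on X. X held 1959 of the genes tested and IV 2307.

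Of the 18 DEGs lower in hsf-1FL, 15 lay on chromosome IV. All 15 were in a stretch of 161.6 kb from dgk-4 to C33D9.3 (chromosome IV, 8631333 to 8792908 in WBcel235), whose bounds were set after the values were seen. Of the 32 genes there with at least 1 CPM, 30 had a lower estimate in hsf-1FL. The median log2(fold-change) was -0.58, which puts hsf-1CTD 1.49 times above hsf-1FL. In 19 of the 32 the hsf-1FL libraries were below those of hsf-1CTD without overlap in both treatments, which was true of 0.464% of all genes tested. The 150 kb to the left had a median of 0.07 over 21 genes and the 150 kb to the right -0.01 over 25 genes. The bounds took in all 15 lower DEGs, so that neither flank could hold one. The contrast of stretch and flanks rests on the values that set the bounds. The block called 17 of the stretch lower and DESeq2 21, against 0.239% and 0.261% of all genes. With surrogate variables in the model 1 was, at a median of -0.51, and without both hsf-1FL libraries numbered 1 there were 3, at -0.59. Among all genes these 2 fits called 1 and 5 lower. Of 880 bins of 100 kb with at least 5 genes of 2 CPM or more, those of chromosome IV from 8600001 to 8700000 and from 8700001 to 8800000 had medians of -0.53 and -0.57. The lowest bin, on X, was at -0.66. The bottom and top 1% of bins lay beyond -0.23 and 0.23.

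**Figure D4:**
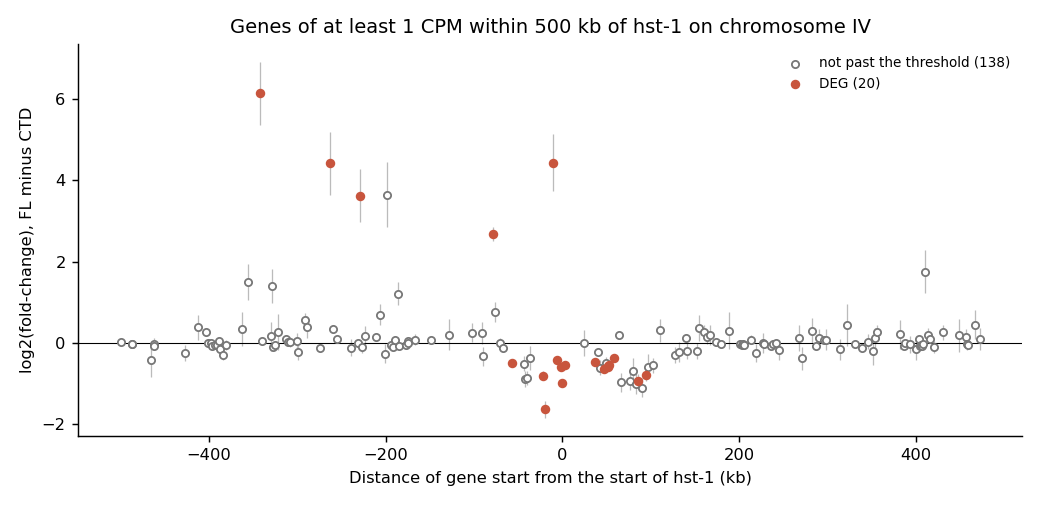
log2(fold-change) of hsf-1FL over hsf-1CTD for the genes of at least 1 CPM within 500 kb of the start of hst-1 on chromosome IV, against the distance of their starts from it (kb), with standard errors. Filled points are the 20 DEGs and open points the other 138; the 32 genes of the stretch, on both sides of hst-1, have a median of -0.58, and the flanks have medians of 0.07 and -0.01.

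The gene with the lowest P-value was hst-1 (chromosome IV, 8688276 to 8691513), which encodes a heparan sulfate N-deacetylase/N-sulfotransferase. It was at 92.7, 101 and 97.7 CPM in untreated and at 95.7, 99.4 and 104.2 CPM in heat-shocked hsf-1FL. In hsf-1CTD it was at 191, 186 and 183 CPM, and at 192, 204 and 192 CPM after heat-shock. The groups did not overlap, and all 6 N2 libraries lay below hsf-1CTD, from 83.7 CPM up to the level of hsf-1FL. Its log2(fold-change) was -0.97 (SE 0.05, adjusted P-value 5.54e-07), a level in hsf-1CTD 1.96 times that in hsf-1FL. The neighbour ints-6, a subunit of the Integrator complex that processes small nuclear RNAs, was at 80.5, 85.8 and 84.7 CPM in untreated hsf-1FL and at 120, 114 and 121 CPM in untreated hsf-1CTD. Its log2(fold-change) was -0.55 (SE 0.05, adjusted P-value 0.00017).

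Other genes of the stretch were higher in hsf-1CTD by similar amounts. The diacylglycerol kinase gene dgk-4, at its left end, ranged from 246 to 302 CPM in hsf-1FL, from 337 to 411 CPM in hsf-1CTD and from 227 to 302 CPM in N2, so that hsf-1CTD overlapped neither. This was a log2(fold-change) of -0.50 (adjusted P-value 0.00435). It was -0.48 for pgm-3, -0.58 for the spliceosomal protein gene snrp-3, -0.41 for the DNA polymerase epsilon subunit gene pole-2 and -0.60 for the mitochondrial ribosome gene mrps-33, with adjusted P-values from 0.00423 to 0.00516. For F21D5.6 it was -0.57 (adjusted P-value 0.00313). The cadherin gene cdh-5 was at 3.33 to 3.92 CPM in untreated hsf-1FL, at 8.503, 16.97 and 13.5 CPM in untreated hsf-1CTD and at 4.59 to 10.2 CPM in untreated N2. The estimate for cdh-5 was -1.63 (SE 0.21, adjusted P-value 0.00435). Over the 32 genes the median difference from N2 on the log2 scale was 0.57 in hsf-1CTD and -0.00 in hsf-1FL, and 31 of 32 were higher in hsf-1CTD than in N2. In the left and right flanks 9 of 21 and 11 of 25 genes were. The bounds were set on values of the same hsf-1CTD libraries, so that this excess over N2 depends in part on that choice. The estimates inside the stretch were not uniform. The gene elli-1 was at 0.21 (adjusted P-value 0.504) and otub-3 at -0.21 (adjusted P-value 0.131). The gene F08B4.8, higher in hsf-1FL at 4.44 (adjusted P-value 0.00652), was at 2.95 CPM there and 0.129 CPM in hsf-1CTD.

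To the left of the stretch, F42A9.6 (chromosome IV, 8609234 to 8611627), a protein-coding gene without a given name, went the other way. It was at 41.1, 46.2 and 41.9 CPM in untreated and at 42.8, 43.7 and 39.5 CPM in heat-shocked hsf-1FL. In hsf-1CTD it was at 8.003, 7.38 and 4.11 CPM and at 9.003, 6.18 and 4.80 CPM. In N2 it ranged from 21.02 to 47.9 CPM, and again hsf-1CTD was the genotype apart from N2. The level was 6.41 times higher in hsf-1FL, a log2(fold-change) with an estimate of 2.68 (SE 0.18, adjusted P-value 8.72e-06). It and hst-1 kept their calls in untreated animals (adjusted P-values 0.00191 and 0.00019) and after heat-shock (0.00251 and 0.000196).

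A few DEGs elsewhere were at steady levels within each line. Macoilin, maco-1, a membrane protein of the neuronal endoplasmic reticulum (chromosome I, 6598982 to 6607520), was at 386, 432 and 417 CPM in untreated hsf-1FL and at 258, 248 and 246 CPM in untreated hsf-1CTD. After heat-shock it was at 364, 365 and 418 CPM against 248, 252 and 238 CPM. N2 was at 391 ± 39.98 CPM (SD, n = 6), beside 397 ± 29.4 in hsf-1FL. The log2(fold-change) was 0.66 (SE 0.06, adjusted P-value 0.00017). The synaptotagmin gene snt-2 (chromosome III, 786070 to 793733) had a mean of 29.5 ± 3.04 CPM in hsf-1CTD, beside 21.2 ± 2.48 CPM in hsf-1FL and 23.8 ± 1.49 CPM in N2. Its estimate was -0.50 (SE 0.09, adjusted P-value 0.00951), and it passed in 5 of the 22 alternatives.

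In other genes both lines stood apart from N2 by unequal amounts. The gene cls-3, of the CLASP family of microtubule-binding proteins (chromosome III, 9186558 to 9191109), was at 45.6, 44.6 and 32.2 CPM in untreated hsf-1FL and at 70.5, 64.7 and 74.7 CPM in untreated hsf-1CTD, and N2 was at 28.2 ± 1.52 CPM (SD, n = 6). Its log2(fold-change) was -0.86 (SE 0.11, adjusted P-value 0.00435). Neighbouring genes of chromosome IV went the other way. C55C3.3 (5685287 to 5688273) was at 24.2, 14.98 and 15.8 CPM in untreated and at 18.1, 17.6 and 18.1 CPM in heat-shocked hsf-1FL. In hsf-1CTD it was at 4.43, 2.42 and 3.74 CPM and at 2.56, 5.41 and 3.58 CPM, and in N2 it ranged from 0.278 to 1.43 CPM. The log2(fold-change) of C55C3.3 was 2.28 (SE 0.20, adjusted P-value 0.00017). Those of C55C3.6 and C55C3.7 next to it were 2.53 (SE 0.36, adjusted P-value 0.00516) and 2.38 (SE 0.29, adjusted P-value 0.00378). C55C3.6 had 0 counts in all 6 N2 libraries. Differences from N2 are given as levels and were not tested here.

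**Figure D5:**
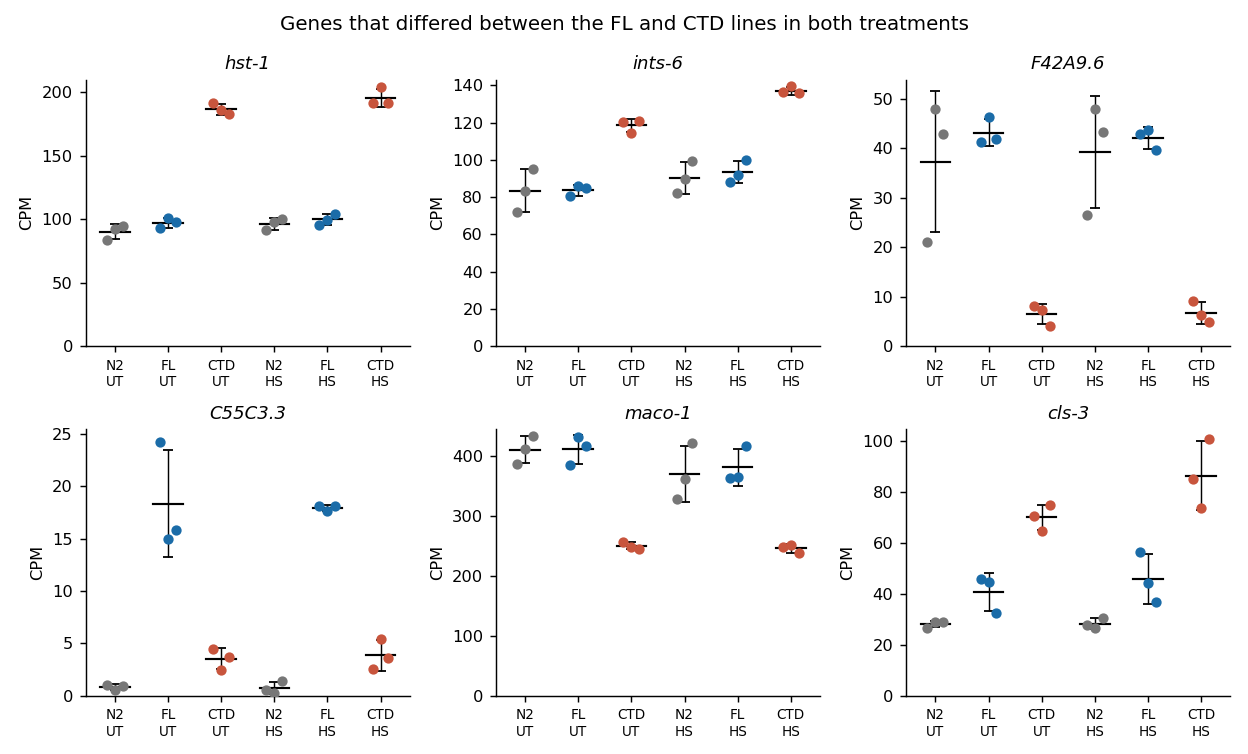
Levels of 6 genes in each library (CPM), with 3 libraries a group, a bar at the mean and error bars of 1 SD, for N2 (grey), hsf-1FL (blue) and hsf-1CTD (red). In hst-1, ints-6, F42A9.6 and maco-1 the hsf-1CTD points stand apart from both others, as with hst-1 at 183 to 204 CPM; in C55C3.3 hsf-1CTD lies between N2 and hsf-1FL, and in cls-3 hsf-1FL lies between N2 and hsf-1CTD.

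At the left end of X (42632 to 207723), 14 of 15 genes of at least 1 CPM had a lower estimate in hsf-1FL, with a median log2(fold-change) of -0.56 and 1 DEG, a pseudogene listed as WBGene00011608. The next 150 kb to the right had a median of -0.07 over 4 genes. On the log2 scale hsf-1FL had a median difference from N2 of -0.26 and hsf-1CTD one of 0.32, so both lines lay away from N2 in opposite directions. The bounds were set after the values were seen. With the block, 5 of the 15 were lower DEGs, against 0.239% of all genes. With surrogate variables, and without both hsf-1FL libraries numbered 1, 0 were, the adjusted P-values of WBGene00011608 being 0.285 and 0.0193 in edgeR.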

How the data were processed

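The authors trimmed reads of 24 libraries with Trim Galore (0.6.7-1), aligned them with STAR (2.7.10a) to WBcel235 and counted them per gene with featureCounts of Subread (2.0.3), as the submitters' notes and the paper give. The deposited values are raw counts for 46934 genes, without normalization. Strand setting and treatment of multi-mapping reads are not given in the sources used here. Positions are those of the deposited table, and 46841 genes have the same position in annotation release 115.

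Samples were grouped by their labels. The 12 libraries of hsf-1FL and hsf-1CTD were fitted with edgeR 4.0.16 (R 4.3.3, limma 3.58.1), which kept a gene if 3 or more of them held 10 or more counts for it, 13801 of the 24170 with a count. TMM factors were 0.877 to 1.10 and the biological coefficient of variation was 27.0%. Over both treatments the model had terms for treatment and genotype; untreated, heat-shocked and heat-response contrasts came from the 4 group means. Quasi-likelihood F-tests were adjusted by the Benjamini-Hochberg method over all genes tested, at 0.01. Intervals are 95% and not adjusted for many genes. Printed CPM were scaled over all 24 libraries so that N2 is on the same scale; 3 counts correspond to 0.152 to 0.267 CPM and were taken as the floor. Depth limits low genes, and intervals on counts cover counting error only.

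The genes named were hsf-1, rab-3, the DEGs over both treatments with at least 1 CPM and no overlap between genotypes within a treatment (the 15 largest in each direction), for the other contrasts the 5 largest DEGs or lowest P-values, and members of gene lists. Genes of the chromosome IV and X stretches and other list members were named after their values were seen. The comparison, lists and rules were chosen with earlier results of these data known. Where a deposited gene had no symbol, its WormBase ID is printed.

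Same-numbered hsf-1FL and hsf-1CTD libraries of a treatment deviated together from their group means (r from 0.176 to 0.607 in 6 of 6 pairs). The numbers were therefore taken to pair them, which comes from the data, since the labels state no shared day. The test that defined a DEG left this pairing out, and the replicate block took it in. Replicates were not copies (chi-square per degree of freedom 8.82 to 159). Alternatives were DESeq2 1.42.0, 3 surrogate variables (sva 3.50.0), a replicate block, other scalings, filters and thresholds, all 24 libraries, the 6 libraries of a treatment and leaving out each library. On simulated data for the comparison over both treatments (13801 genes), edgeR recovered 51% of 100 genes changed by 1 and 77% of 100 changed by 2 on the log2 scale. For the untreated comparison it recovered 33% and 65%, and for the heat-shocked one 32% and 68%. Figures used Python 3.11.15 with matplotlib 3.10.9. Sequences were not used here.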

Additional observations from a re-analysis of the deposited data

How the results depend on the processing

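Over both treatments the count of 253 DEGs was 617 with DESeq2, 3 with surrogate variables, 550 with the replicate block, 618 without a filter beyond 1 count, 18 with at least 10 counts in every library, 10 with all 24 libraries in the fit, 599 at an adjusted P-value under 0.05 and 22 without both hsf-1FL libraries numbered 1, an alternative chosen after seeing the data. Leaving out 1 library gave 5 to 404. Untreated, the count of 2 was 279 with DESeq2, 0 with surrogate variables, 259 with the block, 5 without a filter, 1 with all 24 libraries, 0 with the 6 untreated libraries alone, 1 without both libraries numbered 1, 7 at 0.05 and 1 at a log2(fold-change) of at least 1, and leaving out 1 library gave 1 to 3. Heat-shocked, the count of 2 was 124, 1 and 162 with DESeq2, surrogate variables and the block, 4 with 10 counts in every library, 1 with all 24 libraries, 0 with the 6 heat-shocked libraries alone, 1 without both libraries numbered 1, 6 at 0.05 and 1 at a log2(fold-change) of at least 1, and 1 to 3 with 1 library left out. The count for the heat response was 0 under each of these. The filter on every library leaves fewer genes to test, and the other causes were not tested. F42A9.6 and hst-1 kept direction and call over both treatments in all 22 alternatives run for them, with log2(fold-change) from 2.56 to 2.81 and from -0.99 to -0.88. C55C3.3, ints-6 and maco-1 kept theirs in 21 of 22. Of the genes at low level in hsf-1CTD, msp-49 passed in 12 and ins-31 in 9 of 21. The stretch on chromosome IV kept its median between -0.59 and -0.51 with DESeq2, the block, surrogate variables, all 24 libraries and without both libraries numbered 1, with 21, 17, 1, 3 and 3 lower DEGs. Estimates near 0 changed sign without passing the threshold. These were hsf-1 (0.0035 with DESeq2, 0.0036 with RLE scaling, 0.0043 with library size only, 0.0094 with 10 counts in every library, 0.0032 with all 24 libraries and 0.022 without both libraries numbered 1), hsp-16.41 (-0.20 with surrogate variables and -0.12 without both libraries numbered 1), hsp-70 (0.0070 with all 24 libraries), hsp-4 (-0.11 without both libraries numbered 1) and pat-10 (-0.0053 without them). With 1 library left out these 5 ranged from -0.0786 to 0.0348, -0.0464 to 0.3293, -0.2755 to 0.1450, -0.1492 to 0.1465 and -0.0327 to 0.0456. Over all 22 alternatives the range was wider for hsp-70, from -0.7588 to 0.1450, and for hsp-4, from -0.1492 to 0.2819. Within each treatment the block also called genes that the fit without it did not. In untreated animals it called 30 of the 46 sperm genes and 18 of the 181 innate immunity genes higher, against 1.81% of all genes. After heat-shock it called 30 and 8 of them, against 1.1%. Among named genes, ints-6 passed with the block in both treatments (edgeR adjusted P-values 0.00194 and 0.00305) and not without it (0.023 and 0.0285). The block's DEGs over both treatments included all 253.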
